A study of Mus musculus with 16 samples.

Results

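The AP-1 early genes described here are 8 genes of 19505 measured, taken by symbol: the Fos family members Fos, Fosb, Fosl1 and Fosl2, the Jun family members Jun, Junb and Jund, and Atf3. Each was read by 1 probe set of the Clariom S array. Olfactory mucosa came from the S100a5-tauGFP reporter strain, whose sensory neurons make green fluorescent protein (GFP) under control of S100a5, a gene switched on by odor-evoked activity. All mice carried this reporter, were of both sexes, were 7 to 12 weeks old and stayed singly in clean-air chambers for 40 hours. Pulses of indole/ionone (odor) or of filtered air (vehicle), each lasting 10 seconds, began at hour 26 and came at intervals of 20 min. The sources used here give neither odorant doses nor the ionone isomer. The tissue of 3 mice at a time was dissociated and sorted by flow cytometry. This gave 4 groups of 4 samples: odor GFP+, vehicle GFP+, odor GFP- and vehicle GFP-, with 1 GFP+ and 1 GFP- sample from each of 8 pools.

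AP-1 is a transcription factor made of paired basic leucine zipper (bZIP) proteins. Fos family proteins pair with Jun family proteins and bind DNA at the AP-1 element, while Jun family proteins can also pair with themselves. Fos, Fosb, Junb and Atf3 are immediate early genes, whose transcripts appear within minutes of a stimulus and decay quickly. Calcium entry in active neurons induces them through the cyclic AMP response element (CRE) and the serum response element, and tissue dissociation is also known to induce them in many cell types.

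The proximal promoters are shown because CRE-like letters lie in those of several members. Windows of 7 of the 8 genes were found in the RefSeq table of build GRCm38.p6. The last 120 bases before the annotated gene start are given for 6 of them, 5′ to 3′ on the gene's strand, with every TGACG (on either strand) and TGACATCA in capitals.
Fos (chr12:85473770-85473889, + strand): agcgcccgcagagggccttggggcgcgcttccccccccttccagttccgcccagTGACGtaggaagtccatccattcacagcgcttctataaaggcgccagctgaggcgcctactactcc
Junb (chr8:84978749-84978868, - strand): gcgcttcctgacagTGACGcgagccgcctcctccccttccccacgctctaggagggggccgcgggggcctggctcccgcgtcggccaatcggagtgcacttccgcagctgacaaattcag
Atf3 (chr1:191183334-191183453, - strand): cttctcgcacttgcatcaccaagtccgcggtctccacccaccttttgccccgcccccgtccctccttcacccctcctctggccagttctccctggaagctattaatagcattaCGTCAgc
Jun (chr4:95052223-95052342, - strand): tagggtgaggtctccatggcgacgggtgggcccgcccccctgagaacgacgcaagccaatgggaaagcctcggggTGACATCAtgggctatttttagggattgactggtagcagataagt
Fosl2 (chr5:32136352-32136471, + strand): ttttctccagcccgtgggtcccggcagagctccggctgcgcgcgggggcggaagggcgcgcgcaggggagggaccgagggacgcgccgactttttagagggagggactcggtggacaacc
Jund (chr8:70697619-70697738, + strand): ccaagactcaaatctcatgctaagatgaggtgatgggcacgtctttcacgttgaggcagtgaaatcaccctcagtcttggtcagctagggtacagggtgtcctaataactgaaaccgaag

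Motifs were searched on both strands in the 250 bases before the start on which each window was built. The CRE core TGACG stood in 4 of the 7 windows, those of Fos, Fosb, Junb and Atf3, and in 17.8% of all 32851 windows. The Fosb window was built on a start inside the annotated gene. Its TGACG, 60 bases before that start, therefore lies within the annotated gene and not before it. In Fos the first base of the core lay 66 bases before the start, with a second copy at 129, and in Junb it lay 106 bases before. The longer TGACGT, which contains the core, was found in Fos and Atf3 and in 6.47% of all windows. The Jun window held TGACATCA, a variant of the CRE, 45 bases before the start, as did 2.93% of all windows. The full CRE TGACGTCA (1.55% of windows), the AP-1 element TGANTCA (6.75%) and the CArG box of the serum response element (1.47%) were in 0 of the 7. Bases farther upstream were not searched, so this does not show that the genes lack these elements. The motifs were chosen with these sequences in view, and a match is a description of letters only.

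The deposited values are log2 levels, so a difference of 1 is a factor of 2, and levels of different genes are not compared because each has its own probes. Background was read from 23 antigenomic probe sets, whose median per array was 5.63 to 6.05. The reporter's own gene S100a5 had a GFP+ minus GFP- difference of 1.31 ± 0.17 for odor and 1.27 ± 0.17 for vehicle (SE). Omp, the marker of mature sensory neurons, differed by 0.06 ± 0.12 and 0.09 ± 0.12, so GFP- samples held mature neurons as well as other cells. The GFP- sample of odor replicate 3 stood apart on the second principal component, at 58.9, with the next highest sample, vehicle replicate 3 GFP-, at 24.6. In the 4 samples of replicate 3 the Y-linked genes Eif2s3y, Kdm5d and Uty lay at 2.76 to 4.09, against 6.42 to 12.09 in the other 12 samples. All of the replicate 3 values lay below the background, and all of the others above it. Replicate 3 of both arms thus lacked Y-linked signal, as pools of female mice would, while every other pool had it. The sample titles do not give the sex of a pool.

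The first question was how the members differed between the sorted fractions of the same mice. In odor pools 6 of the 8 were lower in GFP+ than in GFP- cells, 0 were higher and 2 did not pass (limma, Benjamini-Hochberg adjusted p under 0.05 over all genes). In vehicle pools the counts were the same. Of all genes, 18.6% were called in odor pools, 10.6% as lower and 7.96% as higher. In vehicle pools 19.7% were called, 10.8% as lower and 8.86% as higher. In sorted bulk samples, fewer cells of a type and less RNA per cell cannot be told apart. The median difference of the 8 members was -2.26 in odor pools and -2.00 in vehicle pools, while that of all genes was 0.11 in both. Of the genes called in either direction, 42.9% were higher in odor pools and 45.1% in vehicle pools. With each array centred on its median these shares were 86.5% and 86.6%, and the median of all genes was 0.45 in odor pools and 0.46 in vehicle pools.

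**Figure D1:**
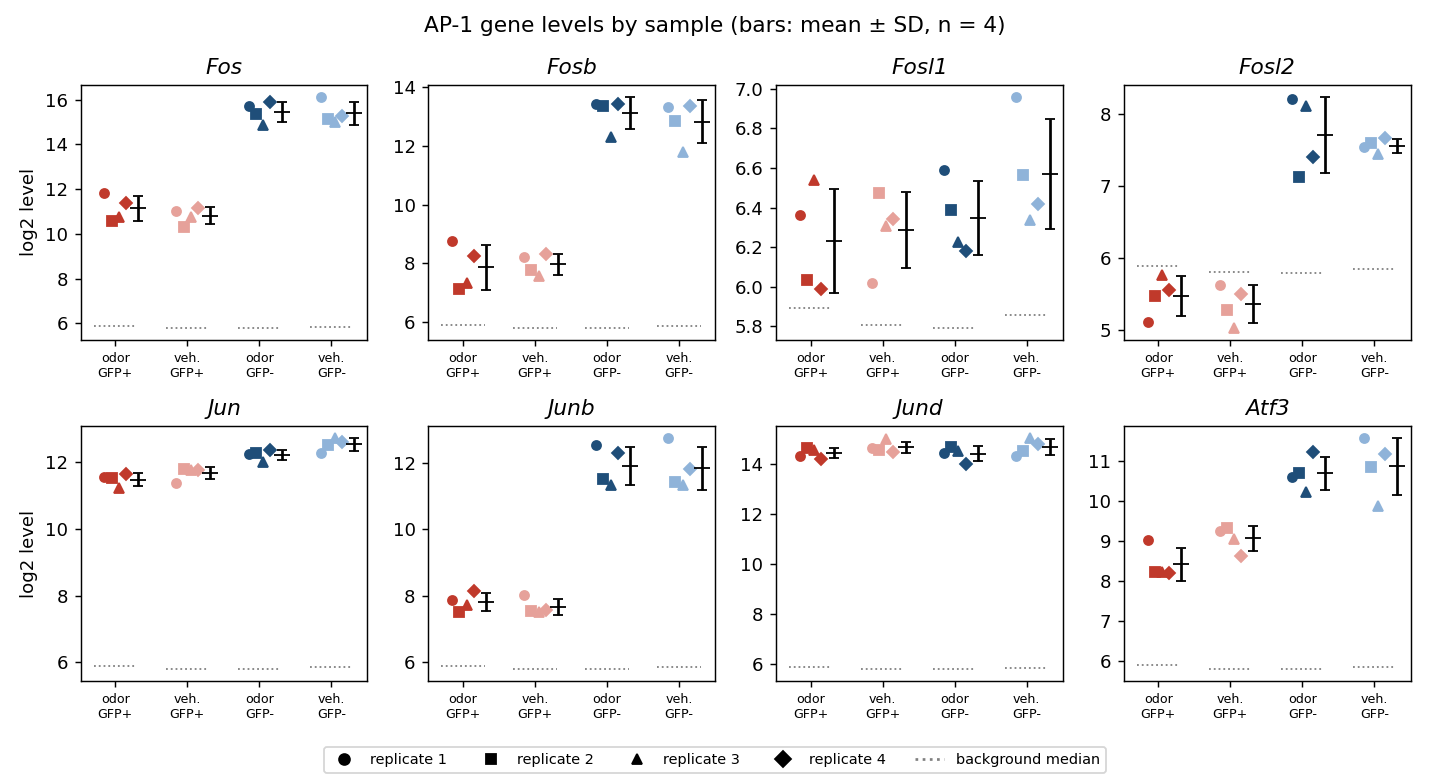
Log2 level (y axis) of each AP-1 gene in the 16 samples, by group (x axis); symbols mark the replicate, bars the mean ± SD of 4 samples and dotted lines the group's median background. Fos, Fosb and Junb lie lower in all GFP+ samples than in any GFP- sample, and Fosl2 is below background in GFP+ samples. Jund overlaps between the fractions. With median centring it is called higher in GFP+ cells, at a value below the median of all genes.

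Among the inducible Fos proteins, Fos is the founding member and the usual marker of recent neuronal activity. In odor pools its log2 levels were 11.81, 10.59, 10.77 and 11.39 in GFP+ cells of replicates 1 to 4, against 15.70, 15.34, 14.87 and 15.90 in GFP- cells. In vehicle pools they were 11.01, 10.32, 10.76 and 11.17 in GFP+ cells, against 16.14, 15.12, 14.97 and 15.28 in GFP- cells. The fractions did not overlap, and every GFP+ sample was far above background. Fos was 19.9-fold lower in GFP+ cells for odor (log2 difference -4.31 ± 0.20, SE, n = 4 pools, limma adjusted p = 3.72e-08) and 23.6-fold lower for vehicle (-4.56 ± 0.20, adjusted p = 2.68e-08). It was among the 1.00% of genes with the most negative difference in odor pools.

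Fosb encodes a Fos protein whose truncated form, delta FosB, accumulates under repeated stimulation. Its levels in odor pools were 8.77, 7.14, 7.31 and 8.24 in GFP+ cells, against 13.43, 13.35, 12.30 and 13.44 in GFP- cells. Those in vehicle pools were 8.20, 7.76, 7.57 and 8.31 in GFP+ cells, against 13.32, 12.85, 11.78 and 13.36 in GFP- cells. Here too the fractions were apart, and replicate 3 was the lowest GFP- sample in both arms. The difference was -5.27 ± 0.24 in odor pools (38.5-fold lower, adjusted p = 3.27e-08) and -4.87 ± 0.24 in vehicle pools (29.2-fold lower, adjusted p = 6.31e-08), the most negative of the 8 members in both arms by point estimate. In odor pools its 95% confidence interval ran from -5.79 to -4.74 and that of Fos from -4.75 to -3.88, so that they met only at their ends, and in vehicle pools the intervals of both genes overlapped.

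Junb encodes a Jun protein that often restrains the activity of Jun. In odor pools it was at 7.87, 7.50, 7.73 and 8.15 in GFP+ cells, against 12.52, 11.50, 11.33 and 12.28 in GFP- cells. In vehicle pools it was at 8.02, 7.54, 7.51 and 7.58 in GFP+ cells, against 12.75, 11.43, 11.34 and 11.81 in GFP- cells. No GFP+ sample came near a GFP- sample. The difference was -4.10 ± 0.19 in odor pools (17.1-fold lower, adjusted p = 4.92e-08) and -4.17 ± 0.19 in vehicle pools (18.0-fold lower, adjusted p = 4.44e-08). Its intervals overlapped those of Fos in both arms.

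Atf3, a stress-induced bZIP protein that pairs with Jun proteins and can repress transcription, differed less between the fractions. In odor pools its levels were 9.03, 8.23, 8.22 and 8.19 in GFP+ cells, against 10.61, 10.71, 10.23 and 11.24 in GFP- cells. In vehicle pools they were 9.24, 9.33, 9.06 and 8.63 in GFP+ cells, against 11.57, 10.85, 9.88 and 11.17 in GFP- cells. The fractions stayed apart, by the smallest margin in vehicle replicate 3, where the pool's difference was -0.83. The difference was -2.28 ± 0.29 in odor pools (adjusted p = 1.26e-04) and -1.80 ± 0.29 in vehicle pools (adjusted p = 7.79e-04).

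Fosl2, also called Fra-2, is a Fos protein induced later and held longer than Fos. In odor pools it was at 5.11, 5.47, 5.77 and 5.56 in GFP+ cells, against 8.20, 7.12, 8.11 and 7.39 in GFP- cells. In vehicle pools it was at 5.63, 5.28, 5.03 and 5.50 in GFP+ cells, against 7.54, 7.60, 7.44 and 7.67 in GFP- cells. All 8 GFP+ samples lay below the background median of their array, so the size of the difference is limited by the background. The fitted difference was -2.23 ± 0.21 in odor pools (adjusted p = 1.29e-05) and -2.20 ± 0.21 in vehicle pools (adjusted p = 1.44e-05). With the background median as the floor of each GFP+ array, Fosl2 was at least 3.52-fold lower in GFP+ cells of odor pools and at least 3.30-fold lower in those of vehicle pools.

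Jun, a strong transcriptional activator and a target of the Jun N-terminal kinases, had a small difference that was alike from pool to pool. In odor pools its levels were 11.55, 11.52, 11.22 and 11.65 in GFP+ cells, against 12.24, 12.28, 12.02 and 12.38 in GFP- cells. In vehicle pools they were 11.39, 11.79, 11.76 and 11.77 in GFP+ cells, against 12.29, 12.52, 12.74 and 12.60 in GFP- cells. Within pools the differences spanned -0.81 to -0.69 for odor and -0.97 to -0.74 for vehicle. Jun was 1.68-fold lower for odor (-0.75 ± 0.12, adjusted p = 7.46e-04) and 1.81-fold lower for vehicle (-0.86 ± 0.12, adjusted p = 2.52e-04). With median centring the values were -0.41 and -0.51 and still passed (adjusted p = 0.0147 and 0.00556).

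Jund and Fosl1 did not pass in either arm. Jund, the family member that most cells make constitutively, was at 14.34, 14.65, 14.59 and 14.21 in GFP+ cells of odor pools, against 14.47, 14.69, 14.56 and 14.02 in their GFP- cells. In vehicle pools it was at 14.68, 14.57, 15.01 and 14.51 in GFP+ cells, against 14.34, 14.54, 15.07 and 14.82 in GFP- cells. The fractions overlapped throughout, with a difference of 0.01 ± 0.14 in odor pools (95% interval -0.29 to 0.32, adjusted p = 0.966) and -0.00 ± 0.14 in vehicle pools (-0.31 to 0.30, adjusted p = 0.993). These intervals do not include a difference of the size seen for Jun. But with median centring, which shifts all genes of an array alike, Jund was called higher in GFP+ cells. It was then at 0.35 in odor pools (limma adjusted p = 0.0460) and 0.35 in vehicle pools (adjusted p = 0.0486). Both values lay below the median of all genes with centring, at 0.45 and 0.46. Fosl1, also called Fra-1, lay only slightly above background in all 16 samples. Its group means were 6.23 ± 0.26 in odor GFP+, 6.29 ± 0.19 in vehicle GFP+, 6.35 ± 0.19 in odor GFP- and 6.57 ± 0.28 in vehicle GFP- samples (SD, n = 4), and its fraction differences were -0.12 ± 0.18 (adjusted p = 0.703) and -0.28 ± 0.18 (adjusted p = 0.309). At levels this close to background a difference may not be detectable.

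**Figure D2:**
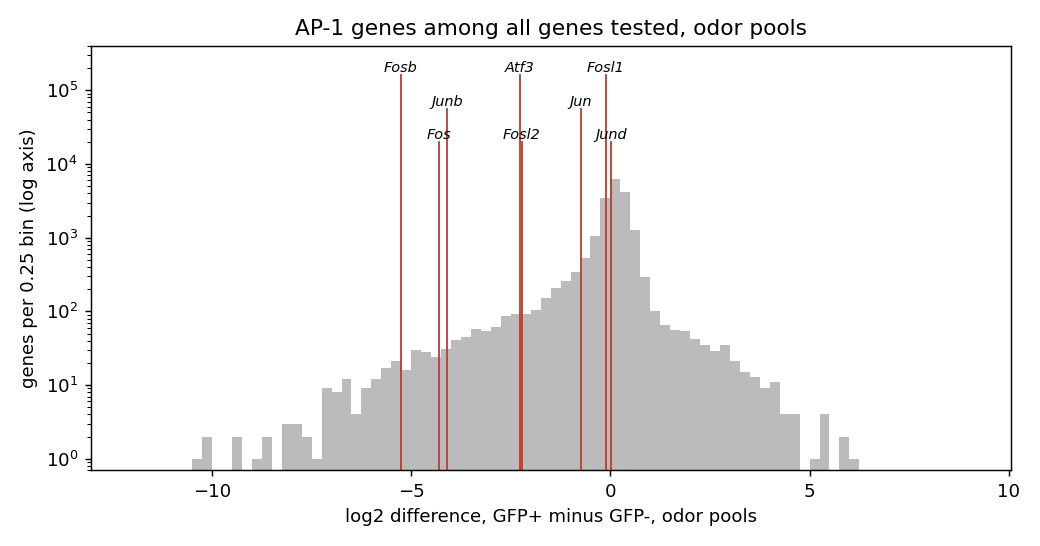
Number of genes (y axis, log scale) by log2 difference of GFP+ minus GFP- cells in odor pools (x axis, bins of 0.25), with the 8 AP-1 genes as red lines. Fosb, Fos and Junb lie in the left tail at -5.27, -4.31 and -4.10, while Jund and Fosl1 lie within the main body of genes.

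By point estimate, the order of the differences in both arms was Fosb, Fos, Junb, Atf3, Jun, Fosl1 and Jund. In both arms the 95% intervals overlapped between Fosb and Fos, Fos and Junb, Jun and Fosl1, and Fosl1 and Jund, and did not between Junb and Atf3 or between Atf3 and Jun. Fosl2 has no place in this order, since its difference is known only as a bound.

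Other bZIP and upstream genes from lists chosen with earlier results known were described by counts. Of 16 measured bZIP partners 1 was lower and 1 higher in each arm, with a median difference of -0.03 in odor pools and 0.05 in vehicle pools. These counts do not exceed the shares of all genes, 10.6% lower and 7.96% higher in odor pools and 10.8% and 8.86% in vehicle pools. Cebpd, an acute-phase regulator of myeloid and epithelial cells, was the lower one (adjusted p = 1.05e-04 in odor pools and 6.80e-05 in vehicle pools). It lay below background in all 8 GFP+ samples, so it was at least 3.62-fold lower in GFP+ cells of odor pools and at least 4.30-fold lower in those of vehicle pools. The higher one was Maff, a small Maf protein, at 0.50 ± 0.16 in odor pools (adjusted p = 0.0472), where only 2 of 4 GFP- samples were above background, and Nfe2l2, the antioxidant regulator Nrf2, at 0.57 ± 0.18 in vehicle pools (adjusted p = 0.0431).

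Of 13 measured kinases and ternary complex factors upstream of AP-1, 1 was called lower in odor pools, the Srf partner Elk3 (adjusted p = 0.0467). It was above background in only 1 of 4 GFP+ samples, and with the others at the background median it was only 1.04-fold lower. In vehicle pools the p38 kinase Mapk14 was lower at -0.51 ± 0.14 (adjusted p = 0.0289). The calcium-dependent kinase gene Camk4 was called higher there (adjusted p = 0.0235), but it was above background in 1 of 4 GFP+ and 0 of 4 GFP- samples and has no measured difference. Srf, which binds the serum response element, and the Jun kinase genes Mapk8, Mapk9 and Mapk10 were not called in either arm. The list medians were 0.13 and 0.22, beside 0.11 for all genes. The counts called in this list do not exceed the shares of all genes either.

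Of 11 measured genes that AP-1 is known to activate in other tissues, 7 were called lower and 1 higher in odor pools, and 6 lower and 1 higher in vehicle pools. The shares of all genes called lower were 10.6% and 10.8%, and those called higher 7.96% and 8.86%. Between 9 and 11 of them lay below background in each odor GFP+ sample, and between 5 and 7 in each odor GFP- sample. Sizes are therefore bounds at best, and a called gene need not have a measured level in either fraction of a pool. Mmp9, a gelatinase abundant in neutrophils, was below background in all 8 GFP+ samples, and in odor pools it was at least 117-fold lower in GFP+ cells (adjusted p = 7.96e-09). The urokinase receptor Plaur, also below background in all 8, was at least 11.7-fold lower (adjusted p = 6.14e-07). The adhesion receptor Cd44 was above background in 2 of 4 odor GFP+ samples, and with the others at the background median it was 18.0-fold lower (adjusted p = 6.44e-05). Each of these is also made by leukocytes. The matrix protease Mmp3, the one called higher (adjusted p = 0.0277), was below background in all 16 samples and has no measured difference.

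Genes often raised by tissue dissociation, other than the members themselves, were lower in 11 of 17 in odor pools and 12 of 17 in vehicle pools, with 0 higher. Among all genes 10.6% and 10.8% were called lower. Egr1, a zinc finger factor induced with Fos, was at -5.71 ± 0.14 in odor pools, the antiproliferative Btg2 at -5.47 ± 0.21 and the mRNA decay factor Zfp36 at -5.02 ± 0.21 (adjusted p = 1.04e-09, 1.34e-08 and 2.05e-08). The immediate early gene Ier2 (-0.52 ± 0.19) and the phosphatase Dusp1 (-0.31 ± 0.14) did not pass in odor pools. Both were picked after their values were seen. The size of the difference varied among the genes of this list, and the part of dissociation in it was not tested.

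The second question was whether odor changed the members. None of the 8 passed between odor and vehicle in GFP+ cells or in GFP- cells, and none passed for a change of the fraction difference with odor. Such tests miss many changes. In simulated data, a log2 change of 1 was recovered in 48% of genes in GFP+ cells and 53% in GFP- cells. For the fraction difference it was recovered in 16%. A log2 change of 2 was recovered in 97%, 93% and 80%, in the same order. Many genes were changed at once there, which eases the adjustment, so recovery of a few changed genes can be lower. The simulated noise also did not include the deviations that samples of a pool share. At an unadjusted p under 0.05 the number of members was 1 in GFP+ cells, 0 in GFP- cells and 0 for the fraction difference. The share of all genes that limma called was 0% in GFP+ cells, with 1070 genes at an unadjusted p under 0.05, and 0% for the fraction difference, with 654. In GFP- cells it was 0.00513%, which is the odorant receptor gene Olfr76 alone, with 697 genes at an unadjusted p under 0.05.

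**Figure D3:**
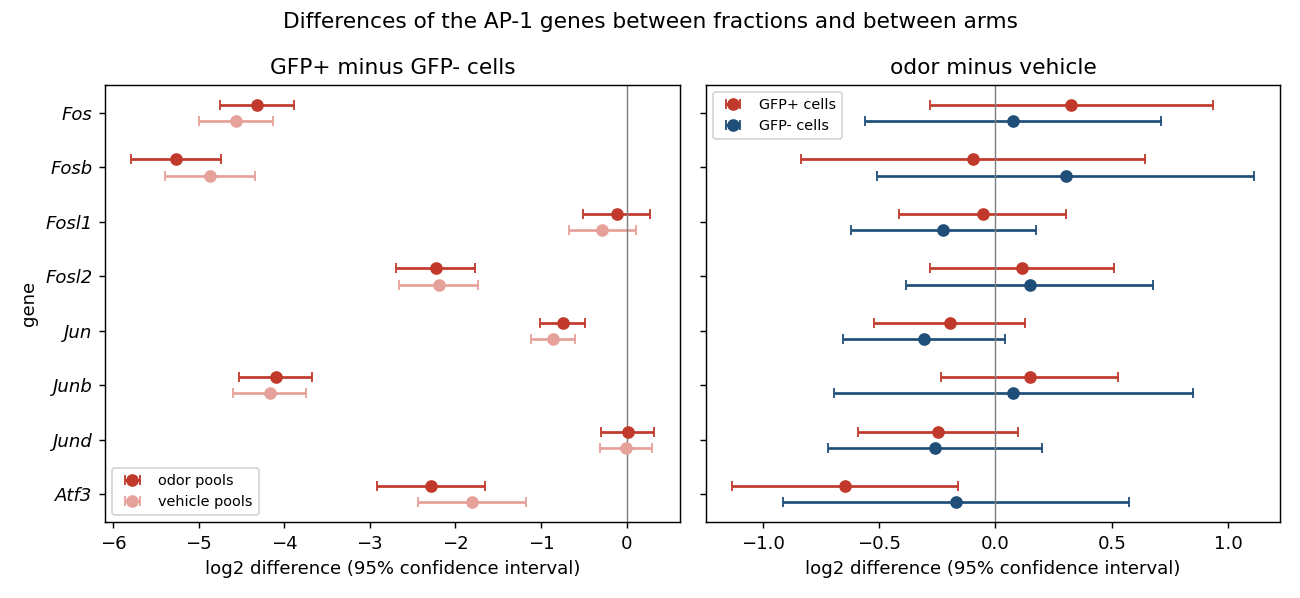
Log2 differences (x axes, points with 95% confidence intervals from limma) of the 8 genes (y axis), GFP+ minus GFP- cells by arm on the left and odor minus vehicle by fraction on the right. The fraction differences of Fos, Fosb, Junb, Atf3, Fosl2 and Jun exclude 0 in both arms, and of the odor differences only that of Atf3 in GFP+ cells, at -0.65, excludes it, without adjustment over genes.

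The odor difference of Fos was 0.33 ± 0.28 in GFP+ cells (95% interval -0.28 to 0.93, adjusted p = 0.967) and 0.08 ± 0.29 in GFP- cells (-0.56 to 0.71, adjusted p = 1.00). That of Fosb was -0.10 ± 0.34 in GFP+ cells (-0.84 to 0.64) and 0.30 ± 0.37 in GFP- cells (-0.51 to 1.11). For Junb the values were 0.15 ± 0.17 (-0.23 to 0.53) in GFP+ cells and 0.08 ± 0.35 (-0.70 to 0.85) in GFP- cells. Changes of about 2-fold in either direction lie outside the GFP+ intervals of these 3 genes and those of Fos and Junb in GFP- cells, while smaller ones could not be told from the spread between pools.

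Atf3 had the odor difference farthest from 0 in GFP+ cells. Its mean was 8.42 ± 0.41 in odor GFP+ samples and 9.06 ± 0.31 in vehicle GFP+ samples (SD, n = 4), a difference of -0.65 ± 0.22 (SE, 95% interval -1.13 to -0.16). The groups overlapped through odor replicate 1, at 9.03, while the other odor samples at 8.19 to 8.23 lay below every vehicle sample. The unadjusted limma p was 0.0140 and the adjusted p 0.891, so Atf3 did not pass. In GFP- cells its odor difference was -0.17 ± 0.34 (adjusted p = 1.00), and the change of its fraction difference with odor was -0.48 ± 0.41 (adjusted p = 1.00).

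Among the remaining members, Jun differed between arms by -0.20 ± 0.15 in GFP+ cells and by -0.31 ± 0.16 in GFP- cells, and Jund by -0.25 ± 0.16 and -0.26 ± 0.21. Fosl1 differed by -0.05 ± 0.16 and -0.22 ± 0.18. Fosl2 differed by 0.15 ± 0.24 in GFP- cells and has no measured odor difference in GFP+ cells, where all 8 samples were below background. None of these passed, and the odor and vehicle samples overlapped for each.

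The third question was how the members varied among pools of one group. In GFP- cells, Fos, Fosb and Junb were low in replicate 3 of both arms, and so was Atf3. Vehicle replicate 1 had the highest vehicle GFP- level of Fos, Junb and Atf3. Jund went the other way in vehicle pools, at 15.07 in replicate 3 and 14.34 in replicate 1. The mean level of 10 neutrophil markers was also lowest in replicate 3 of both arms. It was at 14.51, 13.13, 12.87 and 13.83 in odor GFP- samples of replicates 1 to 4 and at 14.88, 13.84, 12.53 and 13.41 in vehicle GFP- samples. The likeness was partial. In vehicle GFP- replicate 2 this mean lay 0.18 above its group mean, while Fos and Junb deviated from theirs by -0.26 and -0.40. The mean of 9 macrophage markers was highest in vehicle replicate 1, at 8.82, and lowest in odor replicate 3, at 8.10. Sustentacular markers were also highest in vehicle replicate 1, at 12.44 against 11.15 to 11.40 in the other vehicle GFP- samples, and so were microvillar markers, at 8.95 against 7.44 to 8.07. The 8 lymphocyte markers ran the other way, at 6.77, 7.40, 7.46 and 6.98 in odor GFP- samples and 6.19, 6.95, 7.37 and 6.85 in vehicle GFP- samples. The part of these cells, and of the Y-linked difference of replicate 3, in the results was not tested. Without odor replicate 3 or vehicle replicate 3 the same 6 members were called lower in GFP+ cells in both arms.

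**Figure D4:**
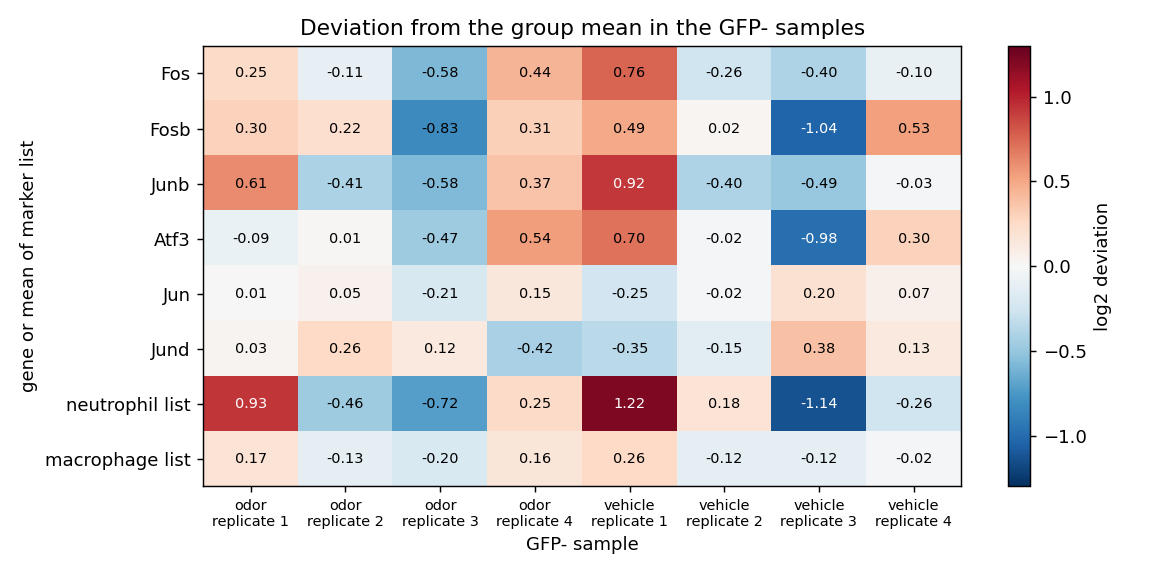
Deviation of 6 AP-1 genes and of the mean of 2 marker lists (y axis) from their own group's mean in the 8 GFP- samples (x axis), on the log2 scale by colour and number. Fos, Fosb, Junb and Atf3 are below their mean in replicate 3 of both arms, where the neutrophil markers are at -0.72 and -1.14.

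The same marker lists and others differed between the fractions to unlike degrees. All 10 neutrophil markers were lower in GFP+ cells in both arms, with sample means of 5.11 to 5.99 in odor GFP+ and 4.93 to 5.80 in vehicle GFP+ samples, against 12.87 to 14.51 in odor GFP- and 12.53 to 14.88 in vehicle GFP- samples. Between 5 and 8 of the 10 lay below background in each GFP+ sample. The mean of 12 mature sensory neuron markers was 16.13 to 16.17 in odor GFP+ and 16.15 to 16.20 in vehicle GFP+ samples, against 15.88 to 15.96 in odor GFP- and 15.65 to 16.02 in vehicle GFP- samples. Only 2 of the 12 were called higher in GFP+ cells in odor pools and 3 in vehicle pools, with 0 lower. In every sample 1 of the 12 lay below background. The mean of 5 immature neuron markers was 6.98 to 7.86 in odor GFP+ samples, against 10.76 to 11.18 in odor GFP- samples. Lists for lymphocytes (8 of 8 in odor pools and 6 of 8 in vehicle pools), microvillar cells (6 of 6 in both) and macrophages (5 of 9 and 7 of 9) also had members lower in GFP+ cells, as did those for sustentacular cells (6 of 8 in both) and globose basal cells (5 of 6 in both). The share of all genes called lower was 10.6% in odor pools and 10.8% in vehicle pools. Which cells of the GFP- fraction carried the AP-1 transcripts was not tested.

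Likeness to Fos was measured by Pearson's correlation over the 16 samples, which largely follows the separation of the fractions. The 5 genes outside the family with the highest values were Btg2 (0.995), Ly6c1 (0.994), Lyz2 (0.994), Itgam (0.994) and Cd24a (0.992). Lyz2 and Itgam are lysozyme and an integrin of myeloid cells. Among the members the values were 0.992 for Junb, 0.991 for Fosb, 0.943 for Fosl2, 0.917 for Atf3, 0.865 for Jun, 0.442 for Fosl1 and -0.13 for Jund.

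With each sample's deviation from its group mean in place of its level, again over 16 samples that share pools, the 5 genes most like Fos were Timmdc1 (0.912), Btg2 (0.911), Stmnd1 (0.902), Lyz2 (0.900) and Slc11a1 (0.889), a metal transporter of phagocytes. Btg2, Lyz2 and Slc11a1 were lower in GFP+ cells in both arms, and Timmdc1 was not called in either. Stmnd1 was higher in GFP+ cells, at 0.74 ± 0.16 in odor pools (limma adjusted p = 0.00809) and 0.79 ± 0.16 in vehicle pools (adjusted p = 0.00534). Btg2 and Lyz2 were named by both measures. Among the members, Fosb had 0.830, Junb 0.783, Atf3 0.591 and Fosl1 0.264, while Jun (-0.01) and Fosl2 (-0.18) were near 0. Jund was negative at -0.64. Fosl2 was below background in all GFP+ samples, which limits its value. By fraction, Junb had 0.948 in GFP- and 0.589 in GFP+ samples, Atf3 0.811 and 0.269, and Fosl1 0.666 and -0.157. Fosb went the other way, with 0.740 and 0.930. Within groups, therefore, Fosb and Junb followed Fos more closely than Jun and Fosl2 did, as a description of these samples.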

How the data were processed

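Expression was measured on 16 Clariom S arrays. Affymetrix Expression Console was used by the authors, per the submitters' processing notes. Its version and its normalization are not given in the sources used. The deposited values were taken as log2, a base inferred from their range and not stated by the labels. The platform annotation paired 19572 of the 28846 probe sets with 1 gene symbol and left 9274 unnamed. For genes with several probe sets the one with the highest mean stood for the gene, which left 19505 genes.

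Tests used limma 3.58.1 in R 4.3.3, two-sided, with Benjamini-Hochberg adjustment over all genes and a threshold of 0.05, and were tried on simulated data. Fraction differences and their change with odor came from 1 fit to the 8 within-pool differences, GFP+ minus GFP-. Odor was compared with vehicle in the 8 samples of each fraction. Each SE comes from its fit, with 1 variance per gene for both arms.

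Pools were read from the titles, which number a pair of vehicle pools 3. The one with the later pool code is replicate 4 here. GFP+ and GFP- samples of a pool deviated together (correlations of 0.109 to 0.249). Same-numbered pools of the 2 arms did so at 0.114 to 0.242 in GFP+ samples and at 0.0664 to 0.332 in GFP- samples. Replicate 3 of both arms also stood apart by the Y-linked genes. The main tests between arms did not enter the replicate numbers, and a fit with them as a block is given among the alternatives below. A p-value here reflects the spread among pools, each of 3 mice, and the number of arrays limits the precision.

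All 8 members are named. Of each other list at most the 3 highest and 3 lowest called genes are named, and the genes most like Fos are the 5 with the highest correlation. Ier2, Dusp1, Srf and the Jun kinase genes were named in addition, after their values were seen. The members and lists were chosen with earlier results of these data known.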

Additional observations from a re-analysis of the deposited data

Results flagged for a closer look

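In groups of 4, a sample was singled out where its gap to the nearest other exceeded Dixon's critical share of the group's range at the 95% level. Chance does this in about 1 of 20 groups, and 6 of 48 were found. Atf3 was at 9.03 in odor GFP+ replicate 1, above the other odor GFP+ samples. Fosb was at 12.30 in odor GFP- replicate 3, below the others, and its within-pool difference in vehicle replicate 3 was -4.21, nearer 0 than the others. In vehicle replicate 1 the GFP+ level of Jun was 11.39, below the others, that of Junb was 8.02, above the others, and the within-pool difference of Fosl1 was -0.94, the most negative of its arm.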

How the results depend on the processing

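The 6 members called lower in GFP+ cells passed in both arms under all 14 alternatives run: median centring, quantile normalization, a filter on the mean against background, a variance trend with robust moderation, the mean of probe sets, pools not entered as a block and each of 8 pools left out. Not all of these could move a difference. Each member has 1 probe set, so the mean of probe sets could not, and a pool left out changed the differences of its own arm only. Median centring called 12316 genes in odor pools and 12357 in vehicle pools, in place of 3620 and 3835, and with them 1 member as higher in each arm, Jund at 0.35 in both, where the vehicle value without centring was -0.00. Centring shifts all genes of an array by the same amount. The median of all genes was then 0.45 in odor pools and 0.46 in vehicle pools, above the value of Jund. Why the array medians differed between the fractions was not tested. Between arms, 0 members passed under any alternative. Leaving out 1 pool gave 0 to 1 genes called in GFP- cells, where the count of 1 ended without odor replicate 1, 3 or 4 or any vehicle replicate. With replicate numbers as a block between arms, 0 genes were called in GFP+ cells, 0 for the fraction difference and 1 in GFP- cells, so the replicate block changed no call. Without the pool block 3273 genes were called in odor pools and 3465 in vehicle pools. Adjusted p for Atf3 in GFP+ cells ran from 0.757 to 1.00 over its alternatives. Signals near or below background limit what can be said of Fosl1, of Fosl2 in GFP+ cells, and of Mmp3, Mmp9, Plaur, Cd44, Cebpd, Elk3, Camk4 and Maff.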
